A study of Mus musculus with 12 samples.

Results

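The 9 secreted or shed signals that link neurons, T cells, microglia and tumour cells in the study of Nf1 optic glioma were described across optic nerve libraries of mice given PBS, carboplatin or selumetinib. The genes were taken by name from the deposited table, as 9 of 35275 rows: the growth factors Mdk and Ptn, the synaptic adhesion gene Nlgn3, the sheddase Adam10, and the chemokines Cx3cl1, Ccl2, Ccl3, Ccl4 and Ccl5. Poly(A) RNA was sequenced from 12 libraries of optic nerve, which the labels also call nerve cells. Every group, the PBS controls included, is titled NF1 and comes from a mouse model of neurofibromatosis type 1. The groups differ in treatment: 6 libraries had PBS, 3 had carboplatin, which damages DNA by platinum cross-links, and 3 had selumetinib, which blocks the kinases MEK1 and MEK2. The sources used here do not give the Nf1 allele, any Cre driver, strain, age, dose or schedule. Nor do they state whether each library is a separate animal, and p-values therefore reflect only the spread among these libraries, part of which may be technical.

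Midkine (Mdk) and pleiotrophin (Ptn) are heparin-binding growth factors that act through receptors such as Ptprz1, Alk, Lrp1 and the syndecans. In mouse models of Nf1 optic glioma, neurons are known to release midkine, which leads T cells to make Ccl4, and Ccl4 in turn leads microglia to make Ccl5, a growth signal for the tumour cells. Neuroligin 3 (Nlgn3) is known to be cut from neurons and oligodendrocyte precursors by the metalloprotease Adam10 in an activity-dependent way and to promote glioma growth, also in the optic nerve. Fractalkine (Cx3cl1) is a membrane-bound neuronal chemokine, itself a substrate of Adam10, whose receptor Cx3cr1 marks microglia, while Ccl2, Ccl3, Ccl4 and Ccl5 recruit monocytes and T cells.

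Totals ran from 21793052 to 33375754 counts per library, and 18344 genes were tested, among them all 9 members. Glial markers were abundant, with 12 mature oligodendrocyte markers at 2.15 to 8.48% of the counts and 10 astrocyte markers at 0.329 to 1.60%, while 15 neuron markers held 0.0153 to 0.469%. Several libraries stood apart in their markers. PBS 1 held 66222 CPM (counts scaled to a common library size) of 12 skeletal muscle markers, against 3.62 to 304 CPM in the other PBS libraries. Selumetinib 1 and 2 held 4045 and 4081 CPM of the neuron markers, against 763 CPM in selumetinib 3, 209.7 to 1283 CPM in PBS and 474 to 613 CPM in carboplatin. Carboplatin 1, 2 and 3 held 917, 85.9 and 1736 CPM of 10 photoreceptor markers, against 14.5 to 159 CPM in PBS and 13.1 to 15.5 CPM in selumetinib. Carboplatin 1, 2 and 3 held 1963, 1736 and 100 CPM of the muscle markers, and selumetinib 4.11 to 9.30 CPM. The labels list PBS 1 to 3 before carboplatin and PBS 4 to 6 before selumetinib. Muscle markers were at 206 to 66222 CPM in PBS 1 to 3 and 3.62 to 5.42 CPM in PBS 4 to 6. Photoreceptor markers were at 27.7 to 159 and 14.5 to 16.5 CPM there. In carboplatin against selumetinib, a difference between these sets of libraries cannot be told apart from treatment. Red blood cell markers (7 genes) were at 12.6 to 87.0 CPM in carboplatin and 631 to 1502 CPM in selumetinib. In PBS they were at 241 to 1273 CPM in PBS 1 to 3 and 2178 to 7892 CPM in PBS 4 to 6. No Y-linked count was found in PBS 1, carboplatin 1 or any selumetinib library. All other libraries held 3377 to 5967 Y-linked counts. Comparisons with selumetinib thus set libraries apart in Y-linked counts as well as in treatment. Outside selumetinib only carboplatin 1 and PBS 1, the library rich in muscle markers, lacked such counts. The part of sex in the selumetinib values was therefore not told apart from that of the drug.

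The genes lie on 6 chromosomes of GRCm38 (mm10), and the 4 CC chemokine genes share chromosome 11. Mdk (ENSMUSG00000027239) spans chr2:91929805-91932297 and Ptn (ENSMUSG00000029838) chr6:36714929-36810220, both on the minus strand. Nlgn3 (ENSMUSG00000031302) spans chrX:101299168-101325963, Adam10 (ENSMUSG00000054693) chr9:70678997-70780229 and Cx3cl1 (ENSMUSG00000031778) chr8:94772009-94782427, all on the plus strand. Nlgn3 overlaps the predicted gene Gm21986 on the same strand, and Ccl2 overlaps Gm17268 on the opposite strand, so reads of those stretches may not be told apart. Ccl2 (ENSMUSG00000035385) spans chr11:82035571-82037453 on the plus strand and Ccl5 (ENSMUSG00000035042) chr11:83525778-83530518 on the minus strand. Ccl3 (ENSMUSG00000000982, chr11:83647844-83649355, minus strand) and Ccl4 (ENSMUSG00000018930, chr11:83662584-83664683, plus strand) are neighbours with 13.2 kb between them. Ccl5 lies 117.3 kb from Ccl3, and Ccl2 lies 1488.3 kb from Ccl5.

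Promoter windows of RefSeq (GRCm38.p6, 250 bases before to 50 after the start) were matched for Ptn, Adam10, Cx3cl1 and Ccl3, that is 4 of the 9 genes. Those of Adam10 and Ccl3 are shown because of the spread of their genes across the libraries. Adam10 was the steadiest of the 9. Ccl3 had the widest fold range among those with a count in every library, though at only 3 to 38 counts. Capitals mark CCAAT, the GC box GGGCGG and the E-box CACGTG on either strand.
Adam10 (chr9:70678732-70678981, plus strand): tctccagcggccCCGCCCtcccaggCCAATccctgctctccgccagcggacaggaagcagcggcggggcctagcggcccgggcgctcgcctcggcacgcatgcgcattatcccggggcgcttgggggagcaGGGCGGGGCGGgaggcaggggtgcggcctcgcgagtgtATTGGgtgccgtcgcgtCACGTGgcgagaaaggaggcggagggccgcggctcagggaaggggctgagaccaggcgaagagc
Ccl3 (chr11:83649379-83649628, minus strand): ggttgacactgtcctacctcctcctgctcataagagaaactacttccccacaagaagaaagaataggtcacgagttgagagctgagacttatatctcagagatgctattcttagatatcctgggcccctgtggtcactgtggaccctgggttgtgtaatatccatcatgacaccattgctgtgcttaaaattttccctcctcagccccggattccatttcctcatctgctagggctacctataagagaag
The Adam10 window was 73.3% G and C with 32 CG dinucleotides, and it held 3 GC boxes, 2 CCAAT boxes and 1 E-box, of which 2 GC boxes overlap. The Ccl3 window was 48.0% G and C with 3 CG dinucleotides and held none of the motifs searched. All 32841 windows had medians of 52.7% G and C and 7 CG dinucleotides, so these 2 genes sat on either side. Of all windows, 37.4% held CCAAT, 35.7% the GC box, 7.15% the E-box, 13.6% TATAAA, 7.81% the AP-1 site TGANTCA and 8.46% the kappaB consensus. The window of Ptn held 1 CCAAT box, and that of Cx3cl1 held 1 GC box and 1 TATAAA, both downstream of the GENCODE start. The AP-1 and kappaB motifs were found in none of the 4 windows.

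On the length-scaled scale (RPKM, CPM per kilobase of exon), Ptn was the most abundant of the 9 genes in PBS at 115.7 ± 40.2 RPKM (SD, n = 6). Mdk at 26.6 ± 5.13 and Adam10 at 26.0 ± 5.15 RPKM followed and overlapped each other, with Mdk above Adam10 in 6 of 12 libraries. Cx3cl1 came next at 13.2 ± 3.71 RPKM, and its range in PBS lay below that of Adam10. The remaining genes were far scarcer: Ccl5 at 2.97 ± 1.41, Ccl2 at 2.30 ± 1.44, Nlgn3 at 1.52 ± 0.48, Ccl3 at 0.73 ± 0.44 and Ccl4 at 0.60 ± 0.32 RPKM. The ranges of neighbours among those 5 overlapped, so the order of neighbours was not resolved beyond the spread of the PBS libraries. Ccl5, at 1.42 RPKM or more in PBS, lay above all PBS values of Ccl3 (up to 1.30) and Ccl4 (up to 1.06). Adam10 varied least across the 12 libraries, 1.58-fold from the lowest to the highest, against 2.45-fold for Mdk, 3.32-fold for Ptn, 5.17-fold for Nlgn3 and 6.33-fold for Cx3cl1. Among the CC chemokines the range was 9.94-fold for Ccl2, 11.0-fold for Ccl5 and 15.3-fold for Ccl3.

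**Figure D1:**
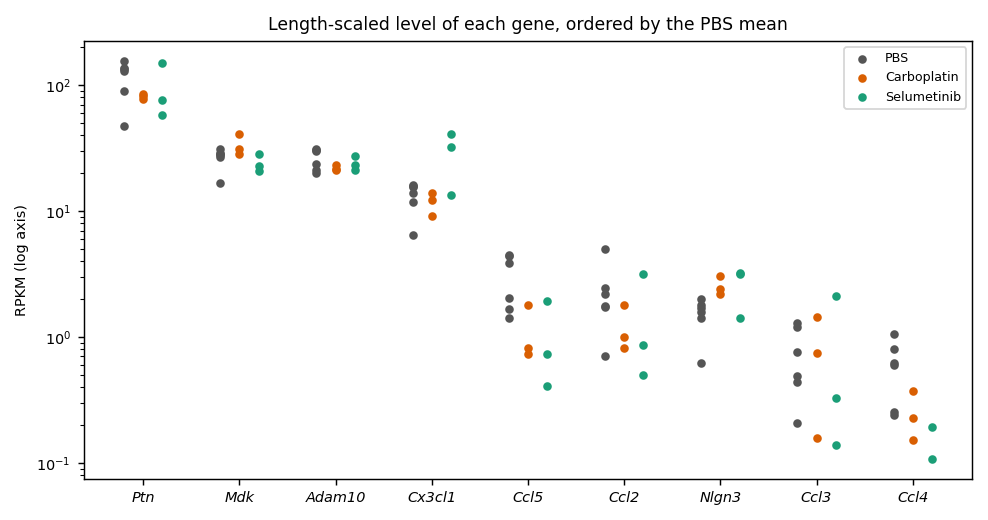
Level of each gene per library in RPKM on a log axis, with genes ordered by their PBS mean and each point 1 library. Ptn stands highest and the CC chemokines and Nlgn3 lowest, and Ccl4 in selumetinib 1, which had 0 counts, is not drawn.

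None of the 9 genes passed edgeR's quasi-likelihood test in any of the 3 comparisons at a Benjamini-Hochberg adjusted p under 0.05. Over all genes tested, carboplatin against PBS called 2.09%, selumetinib against PBS 0% and carboplatin against selumetinib 14%. With 9 genes, 0 calls is not read as a difference from those shares. At an unadjusted p under 0.05 there were, in the same order, 2 members (Nlgn3 and Ccl5), 4 (Ccl4, Nlgn3, Cx3cl1 and Ccl5) and 1 (Cx3cl1), beside 16.5, 24 and 31.5% of all genes. DESeq2 called 0, 2 (Ccl4 and Cx3cl1) and 1 (Cx3cl1) of them, where it called 1574, 2403 and 4715 genes in all. Limma voom with quality weights called 4, 8 and 4, where it also called 5470, 10165 and 10788 genes in all. Groups did not overlap in any library for 1 member in each comparison: Nlgn3 for carboplatin against PBS, Ccl4 for selumetinib against PBS and Mdk for carboplatin against selumetinib. Over all genes, 12.2%, 5.93% and 41.7% were separated in that way. Of the 9 fold changes, 3 were positive and 6 negative in each comparison, with medians of -0.25, -0.15 and -0.12 on the log2 scale, beside -0.11, -0.09 and -0.01 for all genes. The carboplatin and selumetinib comparisons with PBS share the same 6 PBS libraries.

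**Figure D2:**
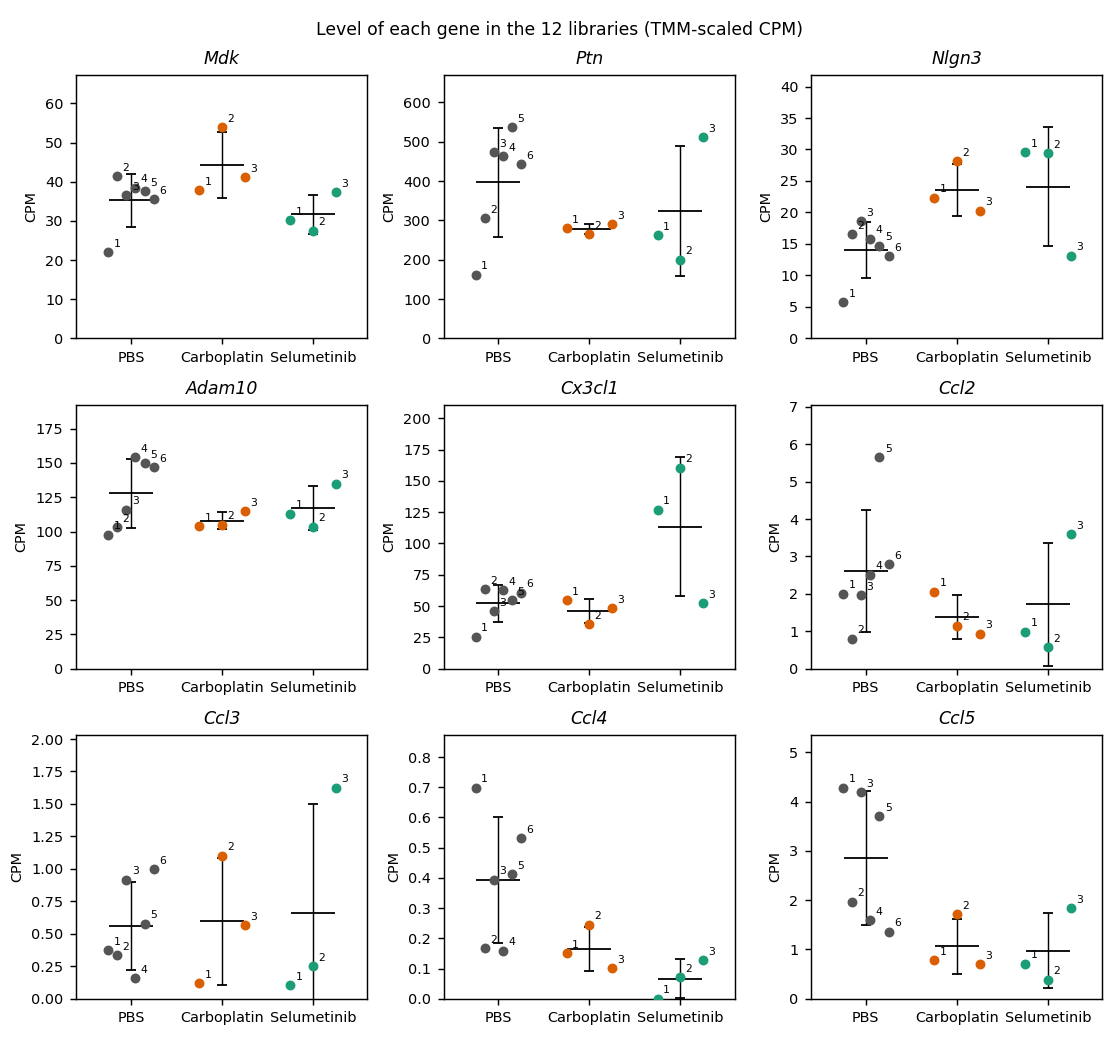
Level of each gene in CPM in the 12 libraries, by treatment, with the replicate number beside each point, the mean as a horizontal line and bars of 1 SD (cut at 0 for Ccl3 in selumetinib). PBS 1 is the lowest library for Mdk, Ptn, Nlgn3, Adam10 and Cx3cl1, and selumetinib 1 and 2 are the highest for Cx3cl1 and Nlgn3.

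**Figure D3:**
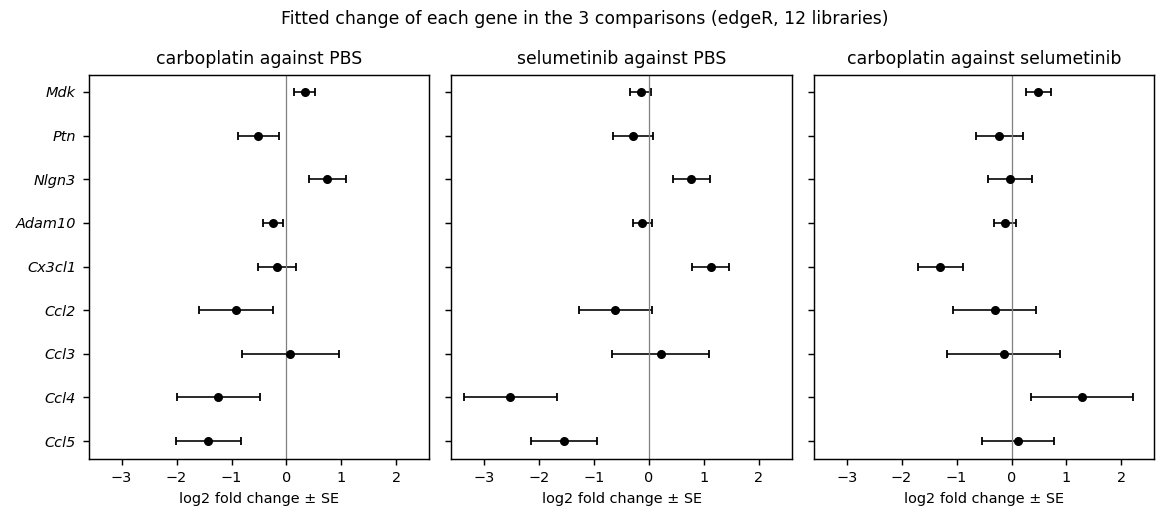
Fitted log2 fold change of each gene in the 3 comparisons, with bars of 1 SE derived from the test. The largest values lie with Ccl4 and Ccl5 below 0 in both comparisons with PBS, and Cx3cl1 changes side between the comparisons with PBS.

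Midkine was close between the groups. In PBS, Mdk ran from 22.02 to 41.5 CPM with a median of 37.1. In carboplatin it was 37.9, 53.9 and 41.1 CPM and in selumetinib 30.2, 27.5 and 37.3 CPM. All carboplatin libraries were thus above all selumetinib libraries, while both overlapped PBS, where PBS 1 was the lowest. The fitted log2 difference of carboplatin from PBS was 0.33 ± 0.19 (edgeR, adjusted p = 0.433), that of selumetinib from PBS -0.15 ± 0.20 (adjusted p = 0.634), and that of carboplatin from selumetinib 0.48 ± 0.23 (adjusted p = 0.172). Without PBS 1 the last was 0.47 with an adjusted p of 0.0383, in a fit that called more genes in all than the fit of all libraries.

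Pleiotrophin, the paralog of midkine, was the most abundant of the 9 genes in every library. Ptn ran from 162 to 537 CPM in PBS (median 453), with PBS 1 and PBS 2 (306 CPM) the lowest. It was 281, 264 and 290.2 CPM in carboplatin and 262, 199.8 and 512 CPM in selumetinib. The carboplatin libraries were tightly grouped inside the PBS range, and selumetinib 3 was far above both other selumetinib libraries. The fitted log2 differences from PBS were -0.51 ± 0.38 for carboplatin (edgeR, adjusted p = 0.536) and -0.29 ± 0.37 for selumetinib (adjusted p = 0.633). The latter was -0.76 without selumetinib 3 and -0.03 without selumetinib 2. Without PBS 1 and selumetinib 1 and 2, a fit added after the data were seen, the carboplatin value was -0.70. With PBS 1 to 3 alone as the controls it was -0.17 (edgeR, adjusted p = 0.856). With PBS 4 to 6 alone it was -0.79 (adjusted p = 0.317), and with Y-linked counts as a covariate -0.29. Per length, Ptn was 1.89 to 2.86 times Mdk in carboplatin, 2.83 and 2.84 times in PBS 1 and 2, and 4.64 to 5.52 times in PBS 3 to 6. In selumetinib 1, 2 and 3 the ratio was 3.35, 2.80 and 5.29.

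Of 20 receptors and partners of midkine and pleiotrophin, 1 rose and 0 fell with carboplatin against PBS, where an unadjusted p under 0.05 was reached by 3 higher and 3 lower, DESeq2 called 2 higher and 3 lower, and voom 4 and 6. With selumetinib against PBS 0 passed, where edgeR gave 6 at an unadjusted p under 0.05, DESeq2 called 1 and voom 12. Sdc4, a heparan sulfate proteoglycan of the cell surface, rose 0.88 ± 0.20 with carboplatin (edgeR, adjusted p = 0.0451), from 143 to 241 CPM in PBS to 355, 404 and 371 CPM. It was 137, 105 and 191 CPM in selumetinib, so all 3 carboplatin libraries were above every other library. That call was lost in 9 of 12 fits without 1 library: each of PBS 2 to 6, carboplatin 1 to 3 and selumetinib 1, with values of 0.78 to 0.94 over the 12 fits. Against selumetinib, carboplatin was higher in Sdc4 (1.38 ± 0.24, adjusted p = 0.0113) and Ncl, nucleolin (0.53 ± 0.14, adjusted p = 0.0363), and lower in the receptor kinase Ltk (-3.28 ± 0.72, adjusted p = 0.0203) and the glypican Gpc2 (-1.16 ± 0.27, adjusted p = 0.0233). All 4 were lost without selumetinib 1 and without selumetinib 2, the libraries with the high neuron marker sum, and all but Sdc4 without carboplatin 1, 2 or 3. Ncl was lost also without any of PBS 2 to 6. Ptprz1, Lrp1 and Alk, shown after their values were seen because they are the textbook receptors, had adjusted p values of 0.89, 0.77 and 0.75 for carboplatin and 0.70, 0.89 and 0.31 for selumetinib against PBS.

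Nlgn3 was scarce per length. It ran from 5.73 to 18.6 CPM in PBS (median 15.3). It was 22.3, 28.1 and 20.3 CPM in carboplatin and 29.6, 29.4 and 13.1 CPM in selumetinib. All 3 carboplatin libraries were above all 6 PBS libraries, while selumetinib 1 and 2 were above and selumetinib 3 was within the PBS range. The fitted log2 difference from PBS was 0.74 ± 0.34 for carboplatin (edgeR, adjusted p = 0.301) and 0.77 ± 0.34 for selumetinib (adjusted p = 0.194). Carboplatin and selumetinib differed by -0.03 ± 0.40 (adjusted p = 0.970). The selumetinib value was 1.09 with an adjusted p of 0.0461 without selumetinib 3, and -0.11 without selumetinib 1 and 2. For selumetinib against PBS, the fit without selumetinib 3 called 4089 genes in all, where the fit of all libraries called 0. The carboplatin value was 0.56 without PBS 1 and selumetinib 1 and 2, a fit added after the data were seen. The neuron marker sum was high in selumetinib 1 and 2, while in carboplatin it lay inside the PBS range, and their part in the Nlgn3 values was not tested. Nlgn3 is X-linked and no selumetinib library held Y-linked counts. The part of sex in its selumetinib values was not told apart from that of the drug.

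**Figure D4:**
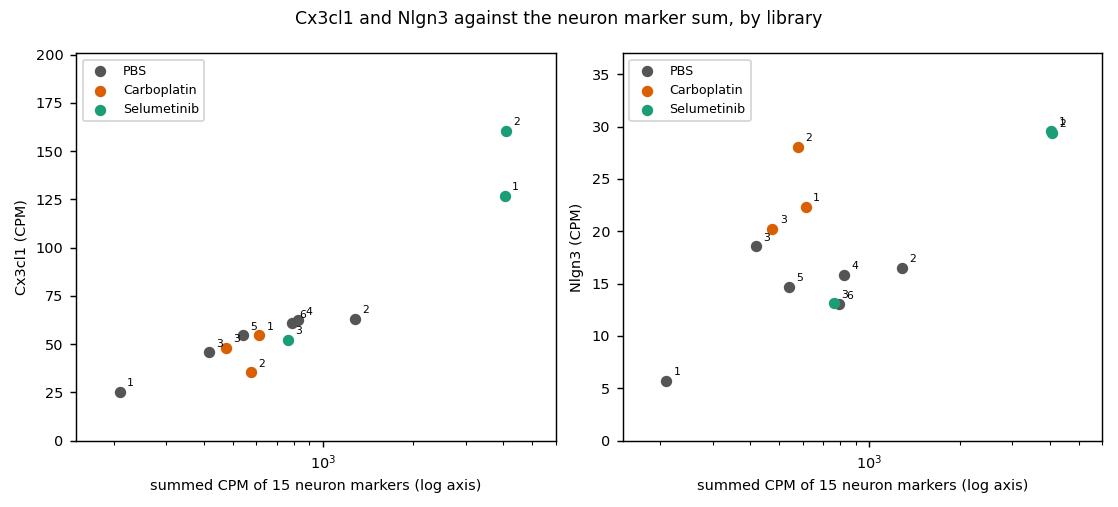
CPM of Cx3cl1 (left) and Nlgn3 (right) against the summed CPM of 15 neuron markers on a log axis, with 1 point per library and its replicate number. Selumetinib 1 and 2 sit at 4045 and 4081 CPM of the markers with the highest Cx3cl1 and Nlgn3, while the carboplatin libraries reach 20.3 to 28.1 CPM of Nlgn3 at 474 to 613 CPM of the markers.

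Most of 13 other genes of neuroligin and neurexin adhesion had negative values with carboplatin. Of these, 0 passed edgeR for carboplatin against PBS, where 2 of 13 were positive, 1 (Mdga1, lower) had an unadjusted p under 0.05, DESeq2 called 0 and voom 5. With selumetinib all 13 were positive against PBS with a median of 1.15 on the log2 scale, beside -0.09 for all genes. None passed, 7 had an unadjusted p under 0.05, DESeq2 called 3 and voom 13. Against selumetinib, carboplatin was lower in Clstn3, a calsyntenin (-3.61 ± 0.82, adjusted p = 0.0219) and Lrrtm2, a postsynaptic adhesion gene (-2.63 ± 0.71, adjusted p = 0.0359). Both were lost without carboplatin 1, 2 or 3 and without selumetinib 1 or 2, and Lrrtm2 also without PBS 5 or 6. The neuron markers moved with this list: 0 of 15 passed edgeR for selumetinib against PBS, but 15 were positive with a median of 2.14, 12 had an unadjusted p under 0.05, DESeq2 called 11 and voom 15. Their part in the list was not tested.

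Adam10 was the steadiest of the 9. It ran from 97.6 to 154 CPM in PBS (median 131). It was 104, 105 and 115 CPM in carboplatin and 113, 104 and 135 CPM in selumetinib, with all 6 values inside the PBS range. The fitted log2 difference from PBS was -0.25 ± 0.17 for carboplatin (edgeR, adjusted p = 0.522) and -0.13 ± 0.17 for selumetinib (adjusted p = 0.657). Within PBS itself, Adam10 was 97.6, 103 and 116 CPM in PBS 1 to 3 and 154, 149.9 and 147 CPM in PBS 4 to 6, so the 2 sets did not overlap. That held for 22.6% of all genes and for 1 other member, Ccl2. The Adam10 difference was -0.51 ± 0.14 (edgeR, adjusted p = 0.211), and 0.00545% of all genes were called between these sets. With PBS 1 to 3 alone as the controls, the carboplatin value was 0.03 and the selumetinib value 0.15. With PBS 4 to 6 alone they were -0.48 (adjusted p = 0.0915) and -0.36 (adjusted p = 0.271).

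Of 19 sheddases and their regulators, 1 rose and 0 fell with carboplatin against PBS, where an unadjusted p under 0.05 was reached by 5 higher and 3 lower, DESeq2 called 2 and 2, and voom 6 and 2. With selumetinib 0 passed, where edgeR gave 3 at an unadjusted p under 0.05, DESeq2 called 1 and voom 14. Adam15, a disintegrin metalloprotease, rose 0.89 ± 0.15 with carboplatin (edgeR, adjusted p = 0.0135), from 84.7 to 111 CPM in PBS to 202, 133 and 194.5 CPM. This call was lost without carboplatin 1 or carboplatin 3, the libraries with 917 and 1736 CPM of photoreceptor markers. All 10 of those markers were positive against PBS with a median of 4.75 on the log2 scale, and their part in the Adam15 value was not tested. Carboplatin was above selumetinib in Adam15 (0.94 ± 0.18, adjusted p = 0.0135), Adam9 (1.03 ± 0.19, adjusted p = 0.0124) and Timp3, an inhibitor of metalloproteases (1.34 ± 0.36, adjusted p = 0.0353). All 3 were lost without selumetinib 1, selumetinib 2 or carboplatin 3, and Adam15 and Timp3 also without carboplatin 1, with Timp3 lost besides without carboplatin 2 or PBS 6. Adam17, the other main sheddase of these substrates and chosen after its values were seen, had adjusted p values of 0.24 for carboplatin and 0.19 for selumetinib against PBS.

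Fractalkine divided the selumetinib libraries. Cx3cl1 ran from 25.4 to 63.2 CPM in PBS (median 57.7). It was 54.7, 35.6 and 48.1 CPM in carboplatin and 127, 161 and 52.2 CPM in selumetinib. Selumetinib 1 and 2 were above every other library, and selumetinib 3 and all carboplatin libraries were inside the PBS range. The fitted log2 difference from PBS was -0.17 ± 0.35 for carboplatin (edgeR, adjusted p = 0.840) and 1.12 ± 0.34 for selumetinib (adjusted p = 0.106). Carboplatin was lower than selumetinib by a log2 difference of -1.29 ± 0.41 (adjusted p = 0.0574). Without selumetinib 3 the selumetinib value was 1.49 with an adjusted p of 0.00820, in a fit that called 4089 genes in all. Without selumetinib 1 and 2 it was -0.00084. Without PBS 1 the carboplatin value against selumetinib was -1.31 with an adjusted p of 0.0156. That fit, too, called more genes in all than the fit of all libraries. The 2 high libraries are those with the neuron marker sums of 4045 and 4081 CPM, and the part of neurons in the Cx3cl1 value was not tested. Here as elsewhere in bulk RNA, more or fewer cells of a type and more or less RNA per cell cannot be told apart. Its receptor gene Cx3cr1, of microglia, was 40.1 to 148 CPM in PBS, 58.0, 126 and 66.4 CPM in carboplatin and 75.0, 64.7 and 119.6 CPM in selumetinib, and it passed in neither comparison with PBS (adjusted p = 0.55 and 0.45).

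Ccl5, the chemokine that microglia release in this circuit, had its 4 lowest values in treated libraries. It ran from 1.36 to 4.28 CPM in PBS (median 2.84). It was 0.79, 1.71 and 0.70 CPM in carboplatin and 0.71, 0.39 and 1.84 CPM in selumetinib. The groups overlapped, since PBS 4 and 6 (1.59 and 1.36 CPM) lay below carboplatin 2 and selumetinib 3. The fitted log2 difference from PBS was -1.42 ± 0.60 for carboplatin (edgeR, adjusted p = 0.266) and -1.54 ± 0.60 for selumetinib (adjusted p = 0.162). Without selumetinib 3 the latter was -2.33 with an adjusted p of 0.0304, in a fit that called 4089 genes in all. Carboplatin and selumetinib differed by 0.12 ± 0.66 (adjusted p = 0.922).

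Ccl4, the T cell chemokine of the circuit, was near the limit of detection. The 6 PBS libraries held 15, 4, 12, 4, 10 and 16 counts. Carboplatin libraries held 5, 6 and 3, and selumetinib libraries 0, 2 and 3. No selumetinib library reached the lowest PBS level of 0.16 CPM, while carboplatin overlapped PBS. Summed over libraries, the level in selumetinib was 0.16 times that of PBS (95% exact interval 0.050 to 0.39) and in carboplatin 0.41 times (0.21 to 0.74), intervals that cover counting error only. The count of 0 in selumetinib 1 allows up to 0.11 CPM at 3 counts. The fitted log2 differences of -1.24 ± 0.75 (edgeR, adjusted p = 0.446) for carboplatin and -2.52 ± 0.85 (adjusted p = 0.125) for selumetinib depend on the prior count and are no bounds.

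Ccl3, the neighbour of Ccl4, held 8, 8, 28, 4, 14 and 30 counts in PBS, 4, 27 and 17 in carboplatin and 3, 7 and 38 in selumetinib. Groups overlapped throughout, and selumetinib 3 was the highest and selumetinib 1 the lowest of all libraries. Its fitted log2 difference from PBS was 0.07 ± 0.89 for carboplatin and 0.21 ± 0.88 for selumetinib (edgeR, adjusted p = 0.979 and 0.892), with an SE larger than the values. Ccl2, a monocyte attractant, ran from 0.80 to 5.65 CPM in PBS (median 2.26), was 2.06, 1.14 and 0.93 CPM in carboplatin and 0.99, 0.57 and 3.59 CPM in selumetinib. Its groups overlapped, and the fitted differences of -0.92 ± 0.67 and -0.61 ± 0.66 did not pass (adjusted p = 0.531 and 0.570). Without PBS 5, the highest library, the carboplatin value was -0.53. All of PBS 4 to 6 were above PBS 1 to 3. With PBS 1 to 3 alone as the controls the carboplatin value was -0.20, and with PBS 4 to 6 alone -1.40. The selumetinib value was -1.71 without selumetinib 3 and -0.19 without selumetinib 2.

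Of 23 chemokine receptors 17 were tested. With carboplatin 1 fell and 0 rose, where 5 were lower and 1 higher at an unadjusted p under 0.05, DESeq2 called 4 lower, and voom 7 lower and 2 higher. With selumetinib against PBS 0 passed, where edgeR gave 3 at an unadjusted p under 0.05, DESeq2 called 0 and voom 12. Ccr2, the receptor of Ccl2 on monocytes, fell by 3.40 ± 0.65 on the log2 scale (edgeR, adjusted p = 0.0238). Ccr2 was 7.82, 5.40 and 7.25 CPM in PBS 1 to 3 and 16.1, 17.6 and 15.6 CPM in PBS 4 to 6. Carboplatin libraries held 1.57, 0.61 and 1.10 CPM of Ccr2, so they did not overlap PBS, as for 12.2% of all genes. The 2 PBS sets did not overlap each other either, as for 22.6% of all genes. The call was lost without any of carboplatin 1 to 3 or PBS 4 to 6, with values of -3.75 to -3.11 over the 12 fits. In selumetinib it was 3.68, 4.15 and 15.01 CPM. Against selumetinib, carboplatin was lower in Ccr2 (-2.78 ± 0.67, adjusted p = 0.0253) and higher in Cxcr4 (1.01 ± 0.24, adjusted p = 0.0236), both lost without selumetinib 1 or 2 or any carboplatin library. Ccr1, a receptor of Ccl3 and Ccl5 taken after its values were seen, had a log2 difference from PBS of -0.99 (adjusted p = 0.229) with carboplatin. Summed markers of border macrophages and monocytes, a list that holds Ccr2, were 241 to 659 CPM in PBS, 46.3 to 103 CPM in carboplatin and 111 to 367 CPM in selumetinib. In that list Ccr2, Cd74 and H2-Aa, the last 2 named after their values were seen, fell with carboplatin. Red blood cell markers moved with them: 7 of 7 were lower with a median of -5.91, and 5 fell (Hba-a1, Hba-a2, Hbb-bs, Hbb-bt and Alas2, named after their values were seen). The part of these cells and of blood in the receptor and chemokine values was not tested.

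**Figure D5:**
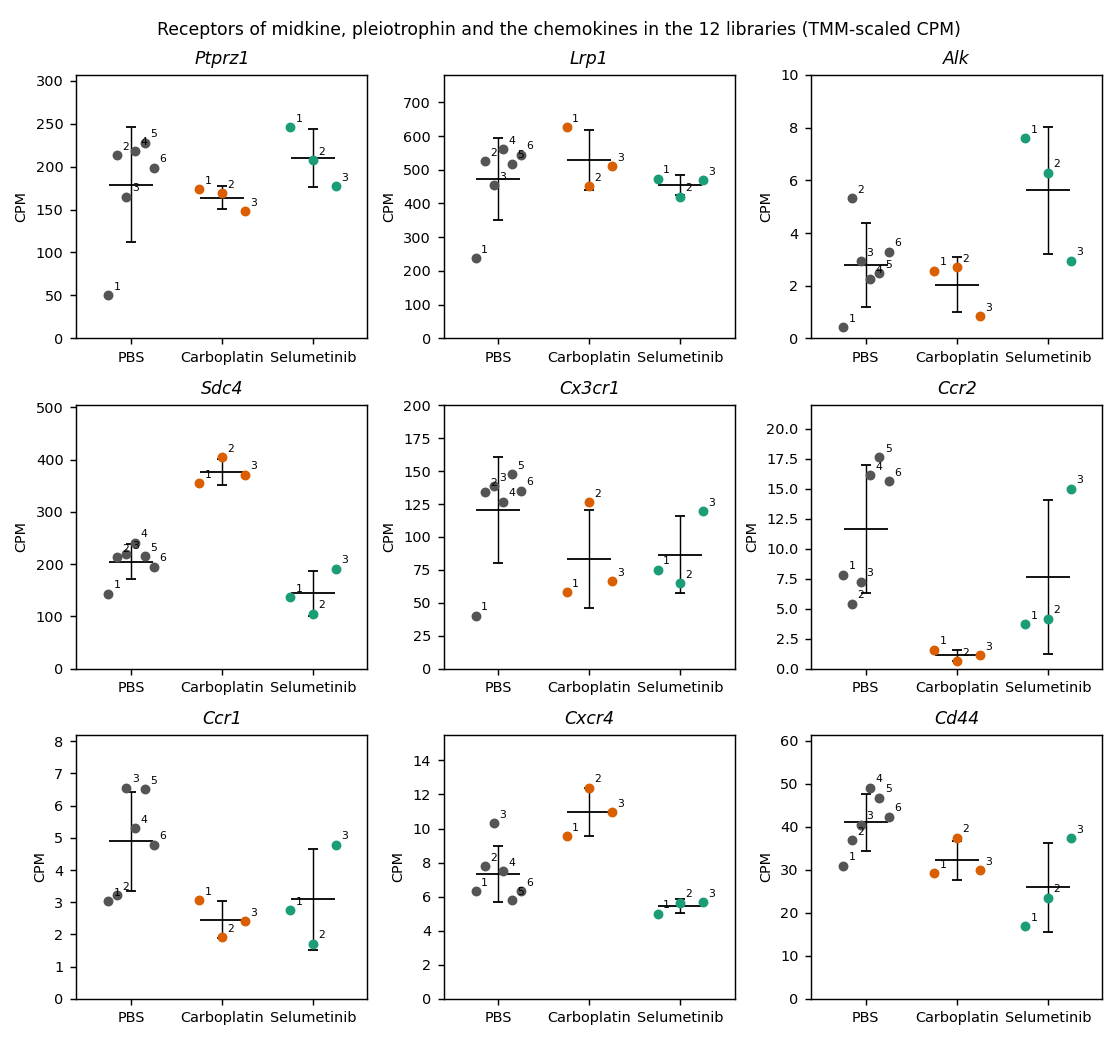
CPM of receptors of midkine, pleiotrophin and the chemokines in the 12 libraries, with replicate numbers, means and bars of 1 SD. Sdc4 is above all other libraries in carboplatin, and Ccr2 is at 0.61 to 1.57 CPM there against 5.40 to 17.6 CPM in PBS.

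T cells make Ccl4 in the known circuit of Nf1 optic glioma, so their markers were read beside it. Summed over 12 markers, T cell RNA was 14.3 to 26.0 CPM in PBS, 9.09 to 12.8 CPM in carboplatin and 14.8 to 21.3 CPM in selumetinib. All 12 markers were lower with carboplatin, of which Cd8b1, named after its values were seen, fell (edgeR, adjusted p = 0.0223), beside the lower red blood cell markers. Trac, Trbc1 and Cd5 were at 0 counts in carboplatin 2, Trbc1 also in carboplatin 3 and selumetinib 1, and Cd3d in selumetinib 2. The selumetinib libraries, with 0 to 3 counts of Ccl4, overlapped PBS in the marker sum. The part of T cells in the Ccl4 values was not tested. In the T cell signalling list, Lck, a kinase of the T cell receptor, fell by 1.95 ± 0.40 with carboplatin (adjusted p = 0.0339) and kept that call in 4 of 12 fits without 1 library. It was lost without PBS 2, 4, 5 or 6, any carboplatin library or selumetinib 2, with values of -2.19 to -1.75. Of its 12 genes 0 passed for selumetinib against PBS, where edgeR gave 4 at an unadjusted p under 0.05, DESeq2 called 1 and voom 8, and Lck and Zap70 were lower in carboplatin than in selumetinib. Microglia markers ranged from 476 to 1199 CPM in PBS, 759.6 to 1060.2 CPM in carboplatin and 472 to 944 CPM in selumetinib, and of the 12 only Fcrls, named after its values were seen, fell with carboplatin.

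NF-kB is a known regulator of several of these chemokine genes. Of 19 tested genes of its pathway, Nfkbia, the inhibitor IkB-alpha, rose 1.64 ± 0.28 with carboplatin (edgeR, adjusted p = 0.0155), to 145, 70.1 and 122 CPM from 26.2 to 52.8 CPM in PBS, and lost the call without carboplatin 1 or 3. These are the libraries with the high photoreceptor marker sums, whose part in the Nfkbia value was not tested. None fell. With selumetinib 0 passed, 10 were lower at an unadjusted p under 0.05, DESeq2 called 8 and voom 14, and all 19 values were negative with a median of -0.77, beside -0.09 for all genes. Every marker of mature oligodendrocytes (12, median -0.62), endothelium (10, median -0.79) and mural cells and fibroblasts (11, median -0.84) was negative there too, while all 15 neuron markers were positive. The part of these cell types in the NF-kB values was not tested. Against selumetinib, carboplatin was higher in Nfkbia (2.57 ± 0.36, adjusted p = 0.00539), Rela, Icam1 and Rel, and Nfkbia kept this call in all 12 fits without 1 library. Of 23 tested other chemokine ligands, 0 passed in either comparison with PBS. For carboplatin, edgeR gave 5 at an unadjusted p under 0.05, DESeq2 called 1 and voom 7, and for selumetinib the counts were 6, 3 and 12. Ccl27a was lower in carboplatin than in selumetinib (-1.76 ± 0.41, adjusted p = 0.0233). Among 26 growth signals of glioma cells, 0 passed in either comparison with PBS. Unadjusted p was under 0.05 for 3 with carboplatin, where DESeq2 called 2 and voom 7, and for 6 with selumetinib, where DESeq2 called 4 and voom 24. In this list carboplatin was above selumetinib in Cxcr4 and below it in Bdnf (-5.09 ± 1.31, adjusted p = 0.0313), a neuronal growth factor. Of the calls between carboplatin and selumetinib for T cell, NF-kB, ligand and growth signal genes, those other than Nfkbia were lost without selumetinib 1 or 2 and without carboplatin 1 or 3. Rel, Icam1 and Zap70 kept theirs in 1, 2 and 3 of 12 such fits.

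The genes most like each member over the 12 libraries are given by Spearman's rho of log2 CPM, as a description in which all points share libraries and scaling. Cx3cl1 was nearest to Kcnh7 (0.99), Nptx1 (0.98) and Rasgrf1 (0.97), and Nlgn3 to Stx18 (0.98), Csnk1d (0.98) and Haghl (0.97). Ptn was nearest to Gpr37, Elovl7 and Gjb1 (0.96 to 0.97), and Mdk to Igfbpl1, Prkd1 and Stard6 (0.94 to 0.95). Adam10 was nearest to Sfpq, Edil3 and Rnf20 (0.94 to 0.96) and Ccl5 to Ripk3, Irgm1 and Psmb9 (0.96 to 0.99). For Ccl2 the values were 0.91 to 0.93 (Eln, Casp12, Plod2) and for Ccl3 0.85 to 0.86 (Siah2, Hist3h2a, Bcas1), and Ccl4 had too few counts. Among the members themselves, rho was 0.79 for Ptn with Adam10, 0.67 for Adam10 with Ccl2 and -0.66 for Nlgn3 with Ccl2. For Ccl4, whose counts were few, it was 0.76 with Ccl5, -0.72 with Nlgn3 and -0.06 with Mdk. That of Mdk with Ccl5 was -0.01.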

How the data were processed

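The values are whole-number read counts by Ensembl gene that the authors deposited for 12 libraries. The submitters' processing notes name build mm10 and the tools STAR, HTSeq, Trimmomatic, FastQC and DESeq2. Their versions, the annotation and the strand setting are not given in the sources used here. Gene models came from GENCODE M21, which held 34490 of the 35275 gene IDs, and promoters from RefSeq.

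Genes were kept with filterByExpr (minimum count 10, minimum total 15), TMM-scaled, and tested by edgeR 4.0.16 (R 4.3.3) in 1 robust quasi-likelihood model of the 3 groups. Calls needed a p of under 0.05 after Benjamini-Hochberg adjustment. The SE is the log2 fold change divided by the square root of F, and is derived from the test. CPM are TMM-scaled, RPKM divide them by union exon length, and the prior count of log2 CPM was 2. Intervals and the limit of 3 counts for a count of 0 cover counting error only. The script was tested on simulated data. Alternatives were DESeq2 1.42.0, limma 3.58.1 voom, other filters and factors, other controls, covariates and each library left out.

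The 9 genes were given; all are reported. Of each of 8 pathway lists, the called genes, at most 4 by smallest p, were named, or else the 2 with the smallest p as values, of which some were left out. Some genes that this rule names are not reported here. For likeness, the 3 genes with the highest rho were named for members with a median of at least 10 counts. The members and lists were chosen with earlier results of these data known. Replicate numbers are those of the titles. They were not taken as pairs, since correlations of deviations between same-numbered libraries ran from -0.125 to 0.379 and not all were above 0.1.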

Additional observations from a re-analysis of the deposited data

Results flagged for a closer look

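Mdk in PBS 1 was 22.02 CPM, far below the other 5 PBS libraries at 35.5 to 41.5 CPM. Its gap to the nearest of them was 0.691 of the group's range, above Dixon's 95% critical value for 6 samples. Chance flags about 1 in 20 such groups, and 9 genes were looked at in PBS. PBS 1 held 66222 CPM of skeletal muscle markers, and their part in the low Mdk value was not tested. PBS 1 was also the lowest of the 12 libraries for Ptn, Nlgn3, Adam10 and Cx3cl1.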

How the results depend on the processing

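Across the other settings, 94 of 106 member values (carboplatin against PBS), 75 of 106 (selumetinib against PBS) and 72 of 87 (carboplatin against selumetinib) kept their direction and their side of the threshold. The number of genes called for carboplatin against PBS was 383, and it was 1574 with DESeq2, 5470 with voom, 640 with the Y-linked covariate, 5 with the replicate block and 112 with PBS 1 to 3 as the controls. It was 73 (without carboplatin 3) to 1941 (without PBS 1) with 1 library left out. For selumetinib against PBS the count of 0 became 2403, 10165, 2605 and 2 with DESeq2, voom, the covariate and the block, and 0 to 4089 (without selumetinib 3) with 1 library left out. For carboplatin against selumetinib the count of 2568 became 4715, 10788, 4290 and 50 in the same order, and 134 (without selumetinib 1) to 5974 (without PBS 1). The replicate block called 0 members in any comparison. That block groups libraries by replicate number, and PBS libraries numbered above 3 share theirs with no treated library. They therefore add nothing to its treatment differences. Whether libraries of the same number belong together is not stated in the sources, so its values are given as a description only.

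Members called with voom were 4, 8 and 4 in the 3 comparisons, with DESeq2 0, 2 and 1, and with the covariate 1 in the last. With 1 library left out they were 0, 0 to 3 and 0 to 2 in the 3 comparisons. Fits without selumetinib 1 and 2, and without these and PBS 1, were added after seeing the data; they leave 1 selumetinib library, which is assumed to vary like the others. The 2 gave 5 and 516 genes for carboplatin against selumetinib, and the second gave 3073 genes and 2 members for carboplatin against PBS. The covariate rests on PBS 1 and carboplatin 1 outside selumetinib.

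The sign of a log2 difference turned as follows, and the cause was not tested. For carboplatin against PBS, Ccl3 was -0.43 with voom and -0.046 without PBS 1 and selumetinib 1 and 2, and Adam10 and Cx3cl1 were 0.034 and 0.11 with the block and 0.032 and 0.041 with PBS 1 to 3. For selumetinib against PBS, Ccl3 was -1.63 with voom and -0.26 with the block, and Mdk, Ptn and Adam10 were 0.35, 0.36 and 0.12 with the covariate. Ptn and Adam10 were 0.051 and 0.15 with the block, and Ptn, Adam10 and Ccl2 were 0.050, 0.15 and 0.11 with PBS 1 to 3. Without selumetinib 1 and 2, Mdk, Ptn, Nlgn3, Adam10, Cx3cl1 and Ccl2 were 0.078, 0.36, -0.11, 0.078, -0.00084 and 0.46, and without PBS 1 as well Ptn, Nlgn3, Adam10, Cx3cl1 and Ccl2 were 0.20, -0.27, 0.0035, -0.15 and 0.39. For carboplatin against selumetinib, Ptn, Ccl2 and Ccl3 were 0.19, 0.50 and 1.20 with voom, Ccl2 and Ccl3 0.020 and 0.27 with the block, and Nlgn3 and Ccl5 0.83 and -0.80 without selumetinib 1 and 2, and 0.83 and -0.81 without PBS 1 as well.

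With 1 library left out, Ccl3 ran from -0.70 to 0.56 (carboplatin against PBS) and -1.61 to 0.73 (selumetinib against PBS). For carboplatin against selumetinib the ranges were -0.50 to 0.25 for Ptn, -0.34 to 0.11 for Nlgn3, -0.75 to 0.80 for Ccl2, -0.92 to 1.70 for Ccl3 and -0.38 to 0.93 for Ccl5. An exact test of members below the filter was not run, since all 9 passed it. Depth limits Ccl3 and Ccl4 most, at 0 to 38 counts per library.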
